A study of Mus musculus with 8 samples.

Results

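Glutathione S-transferases were followed through 16 probe sets of 10 genes on Affymetrix arrays of newborn mouse liver, out of 45037 probe sets and 18193 genes in all. The members were every probe set annotated to exactly 1 of the symbols Gsta3, Gsta4, Gstm1, Gstm3, Gstm4, Gstt1, Gstt2, Gstt3, Gstk1 and Mgst1. The study compared livers of mice aged 2 days, 4 of genotype Mfp2 -/- and 4 labelled WT, with 1 array of total RNA per liver. Mfp2, made by the gene Hsd17b4, is the multifunctional enzyme of peroxisomes that shortens branched and very long chain fatty acids as well as bile acid precursors. The question was which transcripts differ in the newborn liver that lacks it. No treatment is named for either group, and strain, sex and the making of the allele are not stated in the sources used here. Each array was taken as a separate mouse, since the design text counts mice. The genes were picked with the knockout minus wild type differences of these arrays in view, so their differences are given as a description, without a p-value for any member.

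Glutathione S-transferases join the tripeptide glutathione to electrophilic molecules, such as epoxides, quinones and the aldehydes and enones that form when membrane lipids are oxidised. The conjugates are less reactive and are pumped out of the cell. The soluble enzymes fall into classes named alpha, mu, theta and others. The kappa enzyme lies in mitochondria and peroxisomes, and the microsomal enzymes belong to an unrelated family of membrane proteins. The adult liver is rich in these enzymes. Many of their genes respond to NRF2, a transcription factor activated by oxidants, or to CAR and PXR, the receptors of foreign compounds and bile acids.

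Values are log2 RMA values as deposited, and a difference of 1 is a doubling. Errors are the SD over 4 livers for a group mean and the fit's SE for a difference. The knockout mean of Hsd17b4 was 3.84 ± 0.45 (SD, n = 4) and its wild type mean 8.50 ± 0.40, so that each array matched its label. The median of all probe sets on an array lay between 3.68 and 3.73, and values near or below it are not shown to be above background. Correlations between arrays ran from 0.982 to 0.993 within groups and from 0.975 to 0.989 across groups. Of 8 livers, 3 were high in Xist and low in Y-linked transcripts, namely knockout 1, knockout 2 and wild type 3. Differences are also given within replicates 1 and 2 and within replicates 3 and 4, sets that no label defines as batches. In the first of these sets Xist was high in the pair of knockout livers and low in the pair of wild type livers, so that sex and genotype cannot be told apart there.

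Differences varied between the classes and within them. The 3 alpha class probe sets were higher in the knockout by 0.77 to 1.85 and the 3 theta class probe sets by 0.34 to 1.29. The 7 mu class probe sets ran from -0.01 to 1.27, the kappa gene was at 0.32, and the 2 probe sets of microsomal Mgst1 were at -0.01 and 0.07. In 9 of the 16 probe sets every knockout value lay above every wild type value, and in 0 every one lay below. Over all 45037 probe sets such separation upward was seen in 3.09%, and separation downward in 3.81%. With 1 probe set per gene, the median difference was 0.70 over the 10 genes, beside 0.01 over all genes.

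**Figure D1:**
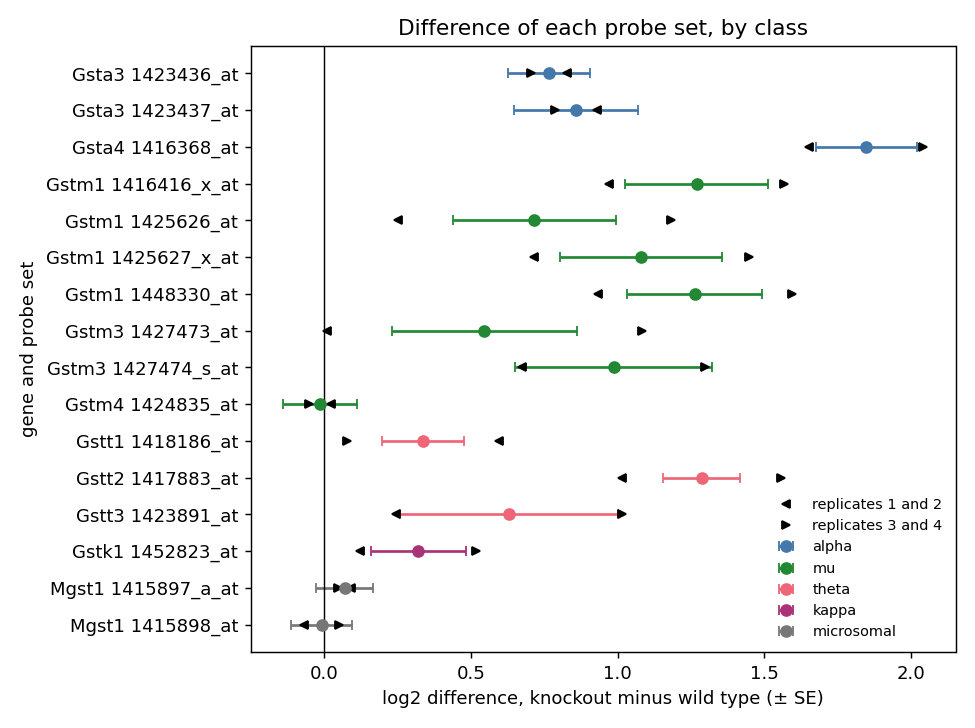
Knockout minus wild type difference (log2, horizontal axis) of the 16 probe sets (vertical axis), coloured by class, with bars for the SE of the fit and black triangles for the differences within replicates 1 and 2 (pointing left) and within replicates 3 and 4 (pointing right). Gsta4 lies farthest to the right at 1.85, while Gstm4 and both probe sets of Mgst1 lie within 0.07 of 0.

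In limma, 4 of the 16 member probe sets passed an adjusted p of 0.05 and all 4 were higher in the knockout, 1 each of Gsta3, Gsta4, Gstm1 and Gstt2. Of all probe sets, 0.762% passed, 0.198% higher and 0.564% lower. The members were chosen from this contrast, so nothing is read from that count. It was 3 without knockout 3 and 4 without wild type 2. Leaving out knockout 1, knockout 2, wild type 1 or wild type 3 gave 2. Leaving out either array numbered 4 gave 1. Gsta4 was past the threshold in 8 of these 8 fits, Gstt2 in 6, Gstm1 in 2 and Gsta3 in 1. These fits reuse the contrast that the members were chosen from, so nothing is read from these counts either.

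Of the alpha class, Gsta4 encodes the enzyme best known for conjugating 4-hydroxynonenal, an aldehyde from oxidised fatty acids. Its values were 9.22, 9.0, 9.52 and 8.90 in knockout livers 1 to 4 and 7.70, 7.22, 7.01 and 7.32 in wild type livers 1 to 4. The lowest knockout liver lay above the highest wild type liver by more than the spread within either group. The means were 9.16 ± 0.28 (SD, n = 4) and 7.31 ± 0.29, a difference of 1.85 ± 0.17 (SE) or 3.60-fold. Replicates 1 and 2 alone differed by 1.65, and replicates 3 and 4 alone by 2.04.

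Gsta3, an alpha class enzyme abundant in mouse liver and known for its activity towards aflatoxin epoxide, was read by 2 probe sets. The first gave 10.70, 10.64, 10.76 and 10.32 in knockout livers 1 to 4, and 9.60, 10.08, 9.69 and 9.98 in wild type livers 1 to 4. The groups did not overlap, but knockout 4 at 10.32 lay just above wild type 2 at 10.08. The difference was 0.77 ± 0.14 (SE), or 1.70-fold. The second probe set gave 0.86 ± 0.21, with a gap between groups that was again narrow, from 7.05 in wild type 2 to 7.22 in knockout 4.

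**Figure D2:**
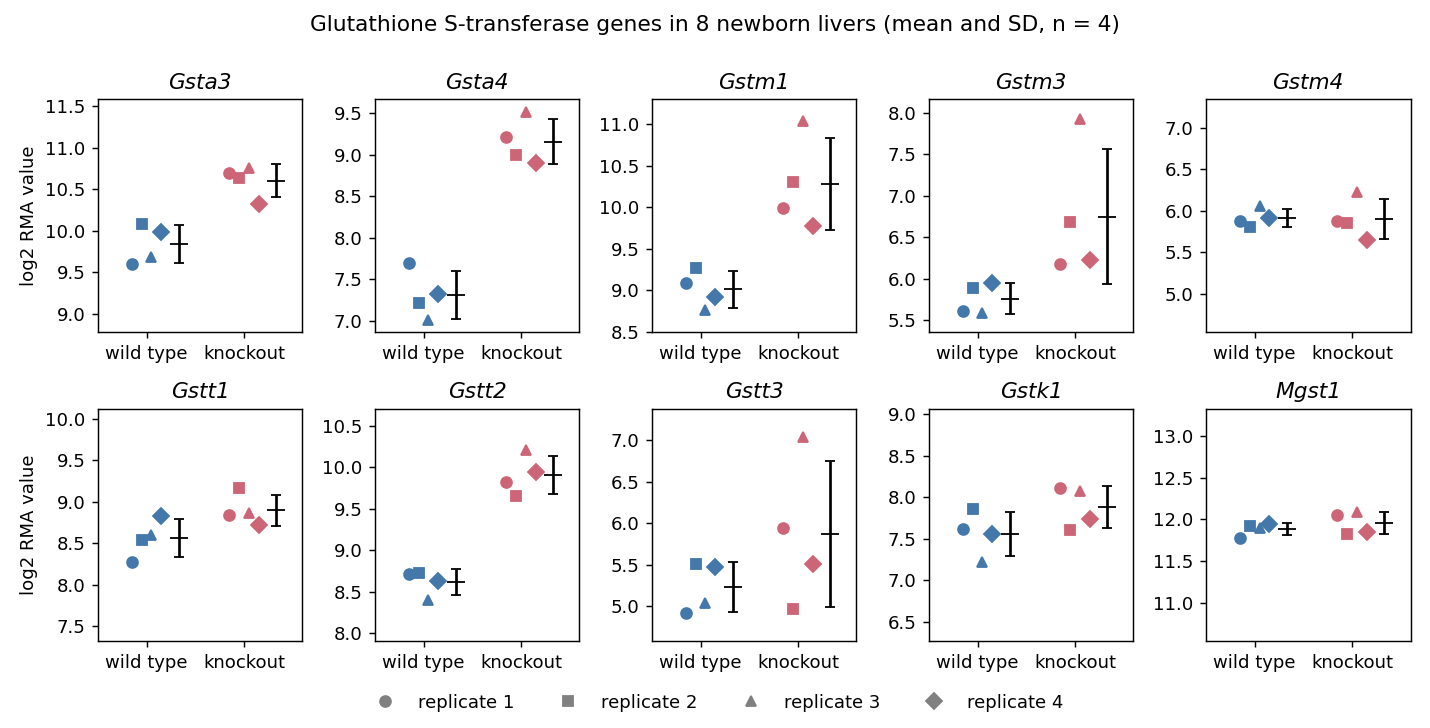
Log2 RMA value (vertical axis, each panel spanning the same range of 2.8) of the 10 genes in wild type (blue) and knockout (red) livers, with a symbol for each replicate number and the group mean and SD (n = 4) in black; the probe set with the highest mean stands for its gene. Gsta3, Gsta4, Gstm1, Gstm3 and Gstt2 show no overlap between groups, and the triangle of knockout 3 is the highest knockout value in 8 of 10 panels.

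In the mu class, Gstm1 and Gstm3 were higher and Gstm4 was level. Gstm1, a major mu enzyme of liver, was read by 4 probe sets, with differences of 1.27, 1.26, 1.08 and 0.72. The probe set with the highest mean gave 9.99, 10.31, 11.03 and 9.77 in knockout livers 1 to 4. In wild type livers 1 to 4 it gave 9.09, 9.27, 8.76 and 8.92. Every knockout liver was above every wild type liver, and knockout 3 stood above the other 3. The means were 10.28 ± 0.55 (SD, n = 4) and 9.01 ± 0.22, a difference of 1.27 ± 0.24 (SE), and without knockout 3 the difference was 1.02. On the dimmest Gstm1 probe set knockout 3 alone stood far from the wild type, and the difference of 0.72 became 0.39 without it. The probe set of Gstm1 that passed the threshold differed by 1.26 ± 0.23 from a wild type mean of 8.82 ± 0.21.

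Gstm3, another mu enzyme, gave 6.17, 6.68, 7.92 and 6.22 in knockout livers 1 to 4 on its brighter probe set. In wild type livers 1 to 4 it gave 5.61, 5.89, 5.59 and 5.95. Knockout 3 was far above the other livers, while knockout 1 and knockout 4 lay close to the wild type range. The difference of 0.99 ± 0.33 (SE) became 0.60 without knockout 3. The dimmer probe set had wild type values of 3.53 to 3.94, near the array medians, and 3 knockout livers at 3.94 to 3.95. Knockout 3 alone reached 5.46 there, and the difference of 0.55 ± 0.31 became 0.17 without it.

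Gstm4 gave 5.65 to 6.23 in knockout and 5.81 to 6.06 in wild type livers, and the groups overlapped. The means were 5.90 ± 0.24 (SD, n = 4) and 5.92 ± 0.11, a difference of -0.01 ± 0.13 (SE). The sign of so small a value changed with the setting, and it ran from -0.12 to 0.07 over 20 alternatives. In the GRCm38.p6 gene table the mu genes lie on chromosome 3 in the order Gstm5, Gstm7, Gstm6, Gstm3, Gstm2, Gstm1 and Gstm4. Gstm2, which differed by -0.12 ± 0.27 (SE), thus lies between the higher Gstm3 and Gstm1, and the level Gstm4 follows Gstm1. Mu genes are close copies of each other, and 2 of the Gstm1 probe sets and 1 of Gstm3 carry the array maker's suffixes x and s, used where probes may also match related transcripts. Gstm1 and Gstm3 are therefore not known to have been read apart from each other or from other mu transcripts.

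The theta class, which acts on small halogenated compounds and on other substrates that the alpha and mu classes handle poorly, varied as well. Gstt2 gave 9.82, 9.65, 10.21 and 9.94 in knockout livers 1 to 4. In wild type livers 1 to 4 it gave 8.71, 8.73, 8.40 and 8.63. The groups were well apart, with the smallest gap between knockout 2 and wild type 2. The means were 9.90 ± 0.23 (SD, n = 4) and 8.62 ± 0.15, a difference of 1.29 ± 0.13 (SE) or 2.44-fold. Replicates 1 and 2 alone gave 1.01, and replicates 3 and 4 alone gave 1.56.

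Gstt1, the best studied theta enzyme, gave 8.83, 9.17, 8.86 and 8.72 in knockout livers 1 to 4. In wild type livers 1 to 4 it gave 8.27, 8.54, 8.60 and 8.83. Wild type 4 lay above knockout 4, so the groups overlapped. The difference was 0.34 ± 0.14 (SE), with 0.60 within replicates 1 and 2 and 0.08 within replicates 3 and 4. It is 1 of 2 genes in which knockout 3 was not the highest knockout liver, the other being Gstk1.

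Gstt3 gave 5.95, 4.97, 7.04 and 5.51 in knockout livers 1 to 4 and 4.92 to 5.51 in wild type livers. Knockout 2 and knockout 4 lay inside the wild type range and knockout 3 far above it. The difference of 0.63 ± 0.37 (SE) became 0.24 without knockout 3. Gstt3, Gstt1, Gstt4 and Gstt2 lie in this order on chromosome 10, so the higher Gstt2 and the overlapping Gstt1 belong to 1 cluster. Gstt4 was at 2.73 in knockout and 2.71 in wild type livers, below the median of every array.

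Gstk1, the kappa class enzyme found in mitochondria and peroxisomes, gave 7.60 to 8.12 in knockout and 7.22 to 7.86 in wild type livers. The groups overlapped, with a difference of 0.32 ± 0.16 (SE). Replicates 1 and 2 alone gave 0.12, and replicates 3 and 4 alone gave 0.52. Mgst1, the membrane-bound enzyme of the endoplasmic reticulum and the outer mitochondrial membrane, gave 11.83 to 12.09 in knockout and 11.78 to 11.94 in wild type livers. Its difference of 0.07 ± 0.10 was within the spread of the livers. A dimmer probe set of Mgst1 averaged 2.17 and 2.18, below the median of every array, and gives no reading of the gene.

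Promoters of the members that the data set apart are shown for comparison, since the alpha gene Gsta3 was higher and the microsomal gene Mgst1 was level while Gstm1 was higher and Gstm4, next to it among the mu genes, was level. Sequences are from RefSeq on GRCm38.p6 and hold the 250 bases before a start site. Of the 10 genes, 8 had an entry, with 12 start sites. Gsta4 and Gstt2, the members with the largest differences, had none, so the search does not cover them. Capitals mark the core of the antioxidant response element, the site bound by NRF2 with small Maf proteins, searched as TGACNNNGC on both strands.
Gsta3 chr1:21240335-21240584 (+): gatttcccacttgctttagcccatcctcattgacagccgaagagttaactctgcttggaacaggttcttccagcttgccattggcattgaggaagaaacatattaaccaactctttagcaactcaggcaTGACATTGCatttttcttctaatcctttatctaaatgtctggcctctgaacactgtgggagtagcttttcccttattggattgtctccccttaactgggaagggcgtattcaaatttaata
Mgst1 chr6:138140277-138140526 (+): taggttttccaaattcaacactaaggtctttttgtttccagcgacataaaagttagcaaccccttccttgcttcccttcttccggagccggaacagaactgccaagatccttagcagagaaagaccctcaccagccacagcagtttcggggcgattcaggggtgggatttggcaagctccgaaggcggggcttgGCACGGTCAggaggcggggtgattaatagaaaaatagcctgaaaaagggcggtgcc
Gstm1 chr3:108017974-108018223 (-): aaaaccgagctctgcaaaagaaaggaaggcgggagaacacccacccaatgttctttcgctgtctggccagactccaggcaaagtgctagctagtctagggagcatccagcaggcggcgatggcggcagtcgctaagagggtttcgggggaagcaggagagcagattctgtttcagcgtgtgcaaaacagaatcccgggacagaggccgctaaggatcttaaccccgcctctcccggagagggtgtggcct
Gstm4 chr3:108044860-108045109 (-): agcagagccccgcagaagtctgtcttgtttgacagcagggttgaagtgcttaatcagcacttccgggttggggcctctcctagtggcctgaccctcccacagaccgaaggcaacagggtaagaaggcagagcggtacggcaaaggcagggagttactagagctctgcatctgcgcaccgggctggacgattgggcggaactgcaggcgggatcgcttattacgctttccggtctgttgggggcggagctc

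The core was found in 2 of the 12 windows, once in Gsta3 and once in Mgst1, while 10.2% of all 32851 windows of this length hold it. In Gsta3 it read TGACATTGC at positions -121 to -113 from the start site. In Mgst1 it read TGACCGTGC on the other strand, at positions -56 to -48. The core was thus found in a gene that was higher and in a gene that was level, though with different letters at its free positions. The other Mgst1 window held no core, and any role of the site was not tested. The core TNGCGTG of the aryl hydrocarbon receptor site was in 0 of the 12 windows and in 4.1% of all. A direct repeat of AGGNCA with 1 base between the copies, as read by PPARalpha and HNF4A, was in 0 of the 12 and in 0.338% of all. Sites outside these windows were not searched.

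The livers differed within their groups. Each difference known when the genes were picked includes knockout 3, so genes high in that liver were more easily picked. The counts and spreads below are a description and are not free of that choice. Knockout 3 was the highest knockout liver in 8 of the 10 genes and the lowest in 0, while over all 18193 genes it was the highest in 22.3%. Knockout 4 was the lowest in 5 of the 10, beside 19.3% over all genes. Averaged over the 10 genes, knockout livers 1 to 4 stood at 8.67, 8.57, 9.17 and 8.46 and wild type livers 1 to 4 at 7.92, 8.08, 7.83 and 8.05. The 4 knockout averages lay above the 4 wild type averages and spread more widely, with an SD of 0.31 against 0.12.

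**Figure D3:**
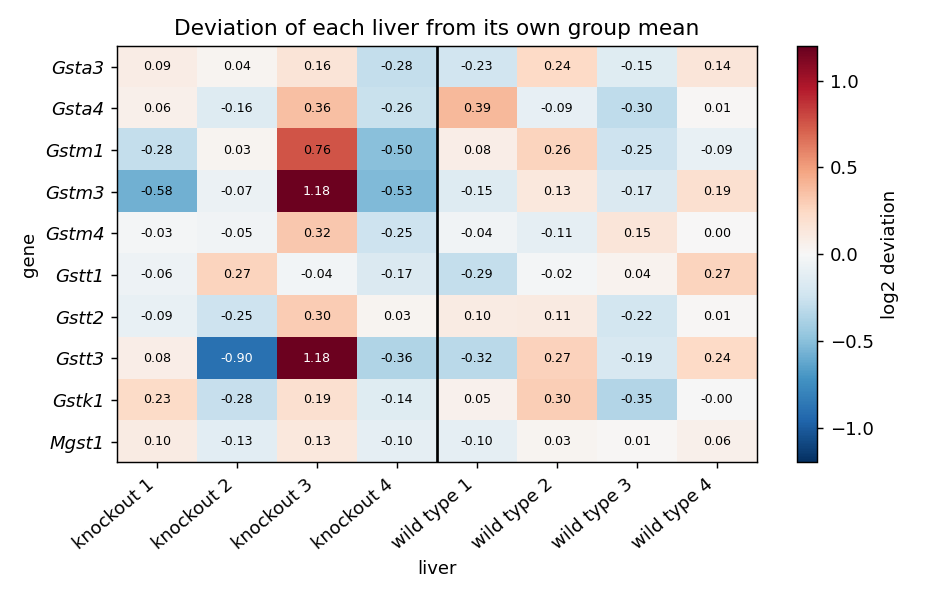
Log2 deviation of each liver (horizontal axis) from the mean of its own group for the 10 genes (vertical axis), in red above and blue below the mean, with the value in each cell. Knockout 3 reaches 1.18 in Gstm3 and in Gstt3 and 0.76 in Gstm1, and Gstt1 is the member at -0.04 in that liver.

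After the group means were taken out, the deviations of the 8 livers were positively correlated in 41 of the 45 pairs of genes, with a median Pearson correlation of 0.53. All points share the same 8 arrays, so these values are a description. The highest was 0.92, between Gstm1 and Gstm3, which may share probe matches. Gstt3 and Mgst1, of unrelated families, stood at 0.86 and Gstt2 and Gstt3 at 0.78. All 4 negative pairs held Gstt1, the lowest at -0.46 with Gstt2. The 6 pairs of Gstm1 probe sets ran from 0.85 to 0.97, and the pair of Gsta3 probe sets stood at 0.84.

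Among 16320 other named genes, the values of Mfge8, Rilp and Cyp4a14 over the 8 livers were most like those of Gsta4, with Pearson correlations of 0.993, 0.977 and 0.973. Mfge8, a secreted protein that bridges dying cells to phagocytes, differed by 0.67 ± 0.11 (SE), and Cyp4a14, a fatty acid omega-hydroxylase, by 0.76 ± 0.12. Rilp, a partner of lysosomal Rab proteins, differed by 0.41 ± 0.10. Most like the deviations averaged over the 10 members were Nadsyn1, which makes NAD, at 0.979, Sar1b, a GTPase of vesicle transport, at 0.970 and Ttc17 at 0.968. These 6 genes are the extremes of a search over so many genes with 8 points each.

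Markers of red cell precursors, which are abundant in newborn liver, moved with the groups. Of 8 measured erythroid markers 2 fell, Hemgn by 0.85 ± 0.15 (SE) and Rhag by 0.80 ± 0.15, with limma adjusted p of 0.0440 and 0.0480. At an unadjusted p under 0.05 all 8 were lower, and in 8 of 8 every knockout liver lay below every wild type liver, beside 5.02% of all genes. Summed on the linear scale, the 8 markers lay between 3833 and 6606 in knockout and between 8559 and 9917 in wild type livers, and 0 of the 8 averaged below the array medians. Of 7 measured hepatocyte markers 0 passed in limma and 1 had an unadjusted p under 0.05, with a median difference of 0.12. Their sums overlapped, from 45444 to 48038 and from 45215 to 48221. The sums rest mostly on Alb, Apoa1, Ttr and Afp, whose means of 12.98 to 13.50 lie near the highest deposited value of 13.7. Apob, Tat, Cps1 and Apoa1 differed by 0.34, 0.33, 0.21 and 0.12. Alb, Ttr and Afp differed by -0.05, -0.18 and -0.22. Fewer cells of a type and less RNA per cell cannot be told apart in whole liver. Within the knockout, the erythroid marker mean was low in both knockout 3 at 8.69 and knockout 4 at 8.56, the livers that were most often highest and lowest in the transferases. The hepatocyte marker mean on the log2 scale was 12.27, 12.22, 12.50 and 12.34 in knockout livers 1 to 4. In wild type livers it lay between 12.21 and 12.32, so knockout 3 was the highest liver there too. A link between these means and the transferases was not tested.

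With the erythroid mean as a covariate, which itself separated the groups, Gsta4 differed by 1.68, Gsta3 by 0.92, Gstm1 by 1.07 and Gstt2 by 0.77. Gstt3 turned to -0.52 and the dimmer probe set of Gstm3 to -0.32, and 0 of the 16 probe sets passed in limma, as did 0 of all probe sets. At an unadjusted p under 0.05 there were 4 of the 16 and 2150 of all. With a covariate for the mean of 3 Y-linked genes, Gsta4 differed by 1.89 and Gstt2 by 1.34. These are the members that differed most, and an effect of sex was not tested.

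Of 22 other genes of the family on a list from textbook knowledge, 16 were measured and 0 passed in limma, where 1.15% of all genes did. At an unadjusted p under 0.05 there were 2 higher and 2 lower, while of all 18193 genes 6.4% were higher and 8.18% lower at that level. The median difference of the 16 was 0.12. Gstp3, of the pi class, was at 8.10, 8.11, 8.43 and 9.16 in wild type livers 1 to 4 and at 7.23, 7.26, 7.11 and 7.79 in knockout livers 1 to 4. All knockout livers were below all wild type livers. The difference was -1.10 ± 0.24 (SE), at an adjusted p of 0.0765. Mgst3, a microsomal enzyme that also acts on leukotrienes, differed by -0.86 ± 0.20 (adjusted p 0.0905), with wild type 2 at 9.40 inside the knockout range of 8.71 to 9.48. It passed without wild type 2.

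Gsta2, an alpha class enzyme whose gene lies on chromosome 9 with Gsta4 and Gsta1, gave 7.13, 5.38, 8.48 and 5.79 in knockout livers 1 to 4. In wild type livers 1 to 4 it gave 4.62, 3.58, 5.64 and 5.21. Knockout 3 and knockout 1 were high while knockout 2 and knockout 4 lay near the upper wild type values. Its difference of 1.93 ± 0.65 (SE) is as large as that of Gsta4, but the livers were so unlike that the adjusted p was 0.262. A probe set annotated to Gsta1, Gsta2 and Gm3776 together, and so outside the members, gave 1.94 ± 0.59 with no overlap between groups and an adjusted p of 0.203.

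**Figure D4:**
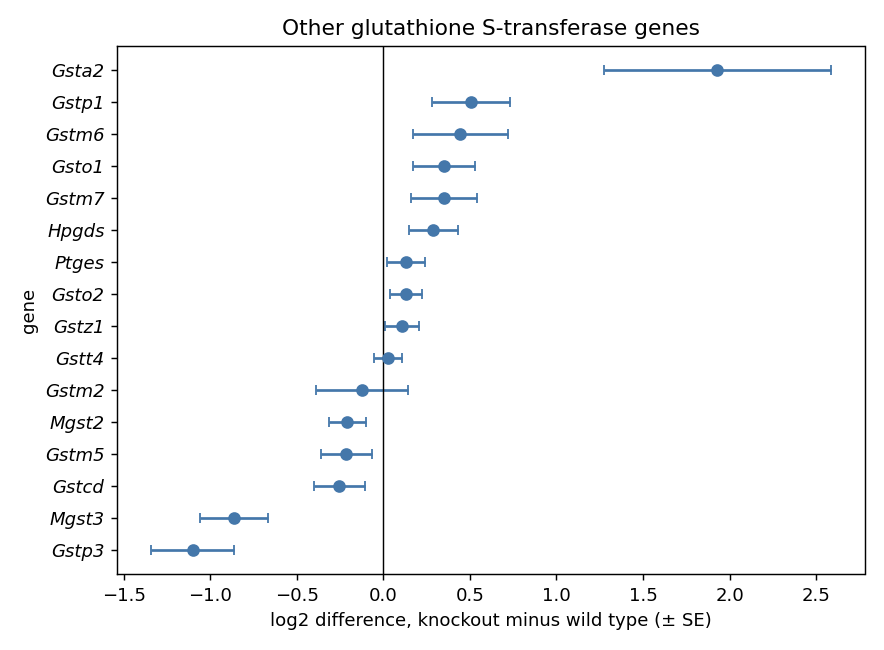
Knockout minus wild type difference (log2, horizontal axis, bars for the SE of the fit) of the 16 other measured genes of the family (vertical axis), sorted by difference. Gsta2 at 1.93 has the widest bar, and Gstp3 and Mgst3 lie at -1.10 and -0.86.

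The other mu genes gave 0.35 ± 0.19 (SE) for Gstm7, 0.45 ± 0.28 for Gstm6, -0.12 ± 0.27 for Gstm2 and -0.22 ± 0.15 for Gstm5. Gstp1, the main pi class enzyme, differed by 0.51 ± 0.22 and the omega enzyme Gsto1 by 0.35 ± 0.18. Gstz1, which degrades maleylacetoacetate in tyrosine breakdown, differed by 0.11 ± 0.10, Mgst2 by -0.21 ± 0.11 and Gstcd by -0.25 ± 0.15. Hpgds, Gsto2, Ptges and Gstt4 averaged below the median of every array, with differences between 0.03 and 0.29. Adjusted p-values of these 13 genes lay between 0.418 and 0.949 in limma.

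Genes that make, recycle or spend glutathione gave a single call, downward. Of 22 measured genes, 0 rose and 1 fell in limma, where 0.308% of all genes rose and 0.841% fell. At an unadjusted p under 0.05 there were 4 higher (18.2%) and 2 lower (9.09%), beside 6.4% and 8.18% of all genes. The median difference was 0.06. The gene that fell was Glrx5, a mitochondrial glutaredoxin of iron-sulphur cluster assembly, by 0.59 ± 0.11 (SE) with an adjusted p of 0.0483. It passed without knockout 2 or without wild type 2 and lost its call in each of the other 6 fits that left out an array. Chac2, which breaks glutathione down, differed by -0.58 ± 0.16 (adjusted p 0.161) and Ggct, which acts on its fragments, by 0.30 ± 0.11 (adjusted p 0.321).

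Of 15 measured genes for the export and further processing of glutathione conjugates, 0 passed in limma, and at an unadjusted p under 0.05 there were 1 higher and 0 lower, beside 6.4% and 8.18% of all genes. The median difference was -0.01. Abcc3, an exporter of conjugates towards the blood, differed by 0.53 ± 0.18 (SE) with an adjusted p of 0.258, and Anpep, a peptidase of the cell surface, by -0.27 ± 0.14 with an adjusted p of 0.533.

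Of 21 measured enzymes that clear aldehydes, enones and epoxides by other routes, 1 rose and 0 fell in limma. Of all genes, 0.308% rose and 0.841% fell. At an unadjusted p under 0.05 there were 8 higher (38.1%) and 2 lower (9.52%), beside 6.4% and 8.18% of all genes. Ephx1, the microsomal epoxide hydrolase, was at 9.80, 9.70, 10.21 and 9.36 in knockout livers 1 to 4 and at 8.70 to 9.0 in wild type livers. It rose by 0.94 ± 0.17 (SE) with an adjusted p of 0.0441, and knockout 3 was its highest and knockout 4 its lowest knockout liver. The call on Ephx1 was lost without any 1 of the 8 arrays. Cbr1, a carbonyl reductase, differed by 0.93 ± 0.23 and Ephx2, the soluble epoxide hydrolase, by 0.59 ± 0.15, with adjusted p of 0.118 and 0.122. In 6 of the 21 all knockout livers lay above all wild type livers, beside 3.59% of all genes, and in 0 all lay below, beside 5.02%. Among the 6, Ephx2 was barely apart, with knockout 3 at 10.306 and wild type 2 at 10.305. The median difference of the 21 was 0.08, with 14 higher and 7 lower by their means.

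Transcripts of 17 measured regulators known from transferase genes gave 0 calls in limma, with 2 higher and 1 lower at an unadjusted p under 0.05, where all genes gave 6.4% and 8.18%. Nfe2l2, which encodes NRF2, differed by 0.08 ± 0.14 (SE), its inhibitor Keap1 by -0.13 ± 0.11 and the CAR gene Nr1i3 by 0.62 ± 0.36, with adjusted p of 0.893, 0.728 and 0.581. These 3 were named after their values were seen. Mafg, a small Maf partner of NRF2, differed by 0.39 ± 0.10 (adjusted p 0.134) with no overlap between groups, and Cebpa, a liver transcription factor, by -0.28 ± 0.11 (adjusted p 0.342).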

How the data were processed

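The deposited table holds log2 values for 45101 probe sets, made by the authors with RMA per the submitters' processing notes. Software and settings go unnamed in the sources used here. The values spanned 1.11 to 13.7, which set the scale as log2. RMA brings all arrays to a shared distribution, so a change in total RNA is hidden, and dim probe sets can show too small a difference. Leaving out 64 array controls left 45037 probe sets, of which 34945 are annotated to 1 gene, 932 to several and 9160 are unnamed here. Symbols were updated through Entrez identifiers against GRCm38.p6 where 34741 probe sets matched. The probe set with the highest mean stood for its gene.

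Groups were compared with limma 3.58.1 in R 4.3.3 (lmFit, eBayes, no covariate, two-sided), with Benjamini-Hochberg adjustment over all 45037 probe sets and a threshold of 0.05. The fit was tested on simulated data. The number of arrays, 4 against 4, limits the precision. Members and lists were chosen with earlier results of these data known. The genes named were Hsd17b4, all members, all other measured transferases, up to 4 called genes of each other list and its 2 lowest p-values among the rest, and the 6 genes most alike in pattern. Nfe2l2, Keap1, Nr1i3, Hemgn, Rhag, the hepatocyte markers and the probe set shared with Gsta1 fall outside this rule. They were picked with their values known. Alternatives changed 1 choice at a time.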

Additional observations from a re-analysis of the deposited data

Results flagged for a closer look

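Among 88 groups of 4 livers checked for a liver far from the other 3, 8 were found, and chance alone would mark about 1 in 20 groups. Of the 32 such groups among the members, 2 held one, both in knockout 3. It stood at 6.35 on a probe set of Gstm1, with the next knockout liver at 5.09, and at 5.46 on the dimmer probe set of Gstm3, with the next at 3.95. The average over the 10 members did not reach this limit in knockout 3, where the gap was 0.703 of the range.

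Among the other transferases, wild type 2 was low for Mgst3 at 9.40 with the next at 10.03, and wild type 1 was high for Gstm5 at 9.36 with the next at 8.87. Wild type 1 was also high for Ggct at 5.73 and wild type 2 for Ephx2 at 10.3. On the second probe set of Hsd17b4, knockout 1 was high at 3.06 and wild type 3 at 8.78.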

How the results depend on the processing

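Of 319 values of member differences under alternatives, 308 moved by less than the larger of the 2 group SDs and 11 moved by more. Knockout 3 widens that SD, which was 0.82 for the brighter Gstm3 probe set and 0.88 for Gstt3. For these the measure could hardly show a move. Of the called differences 0 changed sign, while Gstm4, Gstt3 and the dimmer probe sets of Gstm3 and Mgst1 did so under some alternatives. Of all probe sets, 343 passed. The count was 914 with array weights, 527 with the Y-linked mean as a covariate, 514 with the 2 sets of replicates as a block, 4 within replicates 1 and 2, 461 within replicates 3 and 4 and 0 when the erythroid mean was a covariate. With each array left out in turn it ran from 9 to 489. Of the member probe sets 4 passed, with 0 within replicates 1 and 2, 2 within replicates 3 and 4, 0 with the erythroid mean and 1 to 4 without single arrays. Of the other transferases 0 passed, with 2 under array weights (Gstp3 and Mgst3), 1 with the sets as a block, 1 within replicates 3 and 4, 1 with the mean of all probe sets of a gene and 0 to 1 without single arrays. The count of 1 in the glutathione list and in the aldehyde and epoxide list each became 2 with array weights. Both became 0 within replicates 1 and 2, within replicates 3 and 4 and with the erythroid mean. Without single arrays both counts ran from 0 to 1. In the aldehyde and epoxide list that 1 was Ephx2, without wild type 2, and not Ephx1. The cause was not tested.

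Replicate numbers did not pair the livers one by one. The deviations of same-numbered livers correlated at -0.003, 0.07, 0.19 and 0.32, and 3 of 8 livers correlated best with their own number. The sets of replicates did show in these correlations. For 8 of 8 livers the best partner in the other group came from the same set. The reason was not tested. With the replicate number as a block, 15 of all probe sets passed, 1 of the members (Gsta4), and 0 of the glutathione list and 0 of the aldehyde and epoxide list. No read depth exists for arrays, and Gstt4, Hpgds, Gsto2, Ptges and the dimmer probe sets of Mgst1 and Gstm3 lie near or below the array medians, where differences are not resolved.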
